A study of Homo sapiens with 6 samples.

Results

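Amino acid transporter genes were followed in 786-O cells, an established human line from clear cell renal carcinoma, after transfection with a control or with an siRNA against TEAD4. The members were every gene symbol of the SLC1, SLC3, SLC6, SLC7, SLC36, SLC38 and SLC43 families in the deposited tables, which gave 55 genes of 18126. By the labels, 3 libraries were Control and 3 were siTEAD4, all made from the same line, with no siRNA sequence, dose or time given. TEAD4 is a transcription factor that recruits YAP, and by its title the series concerns YAP, TEAD4 bound to NF-kB, and ccRCC growth. Inside the tables, however, the value columns are headed "Tead_Inhibitor" in the siTEAD4 libraries and "Vehicle" in Control 2 and Control 3. The labels were followed here, so siTEAD4 below means the libraries that carry this label, whatever the cells were given.

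Amino acid transporters are membrane proteins that carry amino acids and related small molecules across the plasma membrane or out of lysosomes. Several SLC7 proteins are light chains that reach the surface only when joined to a heavy chain of the SLC3 family, SLC3A2 (also called 4F2hc or CD98hc) or SLC3A1 (rBAT). In renal tubules, transporters of these families recover filtered amino acids. In cultured tumour cells they supply glutamine, leucine, arginine and cystine, the last being a source of cysteine for glutathione.

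The values are FPKM, fragments scaled by gene length and library total, so levels can be set beside each other between genes. FPKM carries no read counts, and depth is therefore unknown; 15676 to 15857 symbols stood above 0 per library. TEAD4 went from 13.6 ± 3.00 to 8.03 ± 0.773 FPKM (SD, n = 3 each; limma log2 fold change -0.68, adjusted p = 0.00521), and an exact two-sided permutation test gave p = 0.1, the smallest that 3 against 3 libraries allow. Control 2 stood apart from the other Control libraries: the median absolute log2 difference was 0.278 to Control 1 and 0.190 to Control 3, against 0.123 between Control 1 and Control 3 and 0.0557 to 0.0795 among the siTEAD4 libraries. Between the groups it was 0.262 to 0.349. Control 1 lay 0.272 to 0.276 from the siTEAD4 libraries, about as far as from Control 2. Control 2 was the Control library farthest from the Control median in 18 of the 23 tested members (78.3%) and in 56.9% of all genes tested. The kidney marker gene PAX8 stood between 66.52 and 88.54 FPKM in all libraries, and 9 of 10 renal and ccRCC markers passed the filter. Of these 9, 3 fell in siTEAD4 and 1 rose, a share called of 44.4% beside 44.9% of all genes tested. By direction, 33.3% fell and 11.1% rose, beside 18.8% and 26.1% of all genes tested. The cadherin genes CDH6 (to 19% of Control, limma adjusted p = 3.42e-06) and CDH2 (to 37%, adjusted p = 7.15e-06) and PAX2 (to 53%, adjusted p = 0.00186) were lower. EPAS1, which encodes HIF-2 alpha, was higher (log2 fold change 0.32, limma adjusted p = 0.035). Of the markers of T cells and endothelium, none exceeded 0.42 FPKM in any library. Of the 3 fibroblast markers, DCN was listed at 0 in all libraries, PDGFRB did not exceed 0.13 FPKM, and the collagen gene COL1A1 fell from between 1.12 and 1.27 FPKM in Control to between 0.40 and 0.46 FPKM in siTEAD4 (log2 fold change -0.62, limma adjusted p = 0.000458). COL1A1 passed the filter only through Control, where it was higher. The macrophage marker list was not empty: CD68, a lysosomal membrane protein gene, stood at 31.7 ± 5.95 and 20.01 ± 1.24 FPKM (SD, n = 3) and CSF1R at 1.81 ± 0.355 and 1.23 ± 0.197, while CD14 did not exceed 0.49 FPKM. The part of these marker genes in the results below was not tested.

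By fold change on the log2(FPKM + 1) scale, the largest falls in siTEAD4 were those of the cationic amino acid exchanger SLC7A7, the taurine transporter SLC6A6 and SLC38A10, each to between 32.4% and 41.7% of the Control mean. The largest rise was that of the cystine importer SLC7A11, to 2.43 times Control, and its heavy chain SLC3A2 rose to 1.41 times. Of the 55 members, 23 reached 1 FPKM in at least 3 of the 6 libraries and were tested, and 32 were low. Among the tested members, 12 fell and 5 rose in siTEAD4, and 6 did not pass the threshold, a Benjamini-Hochberg adjusted p of 0.05 over all genes tested in limma. Among all 11411 genes tested, 44.9% were called, 26.1% as higher and 18.8% as lower, beside 73.9%, 21.7% and 52.2% of the tested members. The median log2 fold change of the tested members was -0.27, and that of all genes tested was 0.09. One of the 12, SLC43A2, passed the filter only through Control, where it was higher; without it 11 of 22 fell and the median was -0.24. Of all calls, 58.2% were rises on the deposited values, 46.9% with library medians made equal and 45.9% after TMM-like scaling, while the members stayed at 5 higher and 12 lower, the same genes, under both. The counts of members fell to 3 higher without siTEAD4 1 or without siTEAD4 3, and to 7 lower without siTEAD4 2. The share called of all genes tested fell as well, from 44.9% to 29.9% without siTEAD4 1 and to 30.6% without siTEAD4 2 or without siTEAD4 3. The groups did not overlap in 18 of the 23, where 57.7% of all genes tested did not overlap. In bulk RNA, fewer cells that express a gene and less RNA per cell cannot be told apart.

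**Figure D1:**
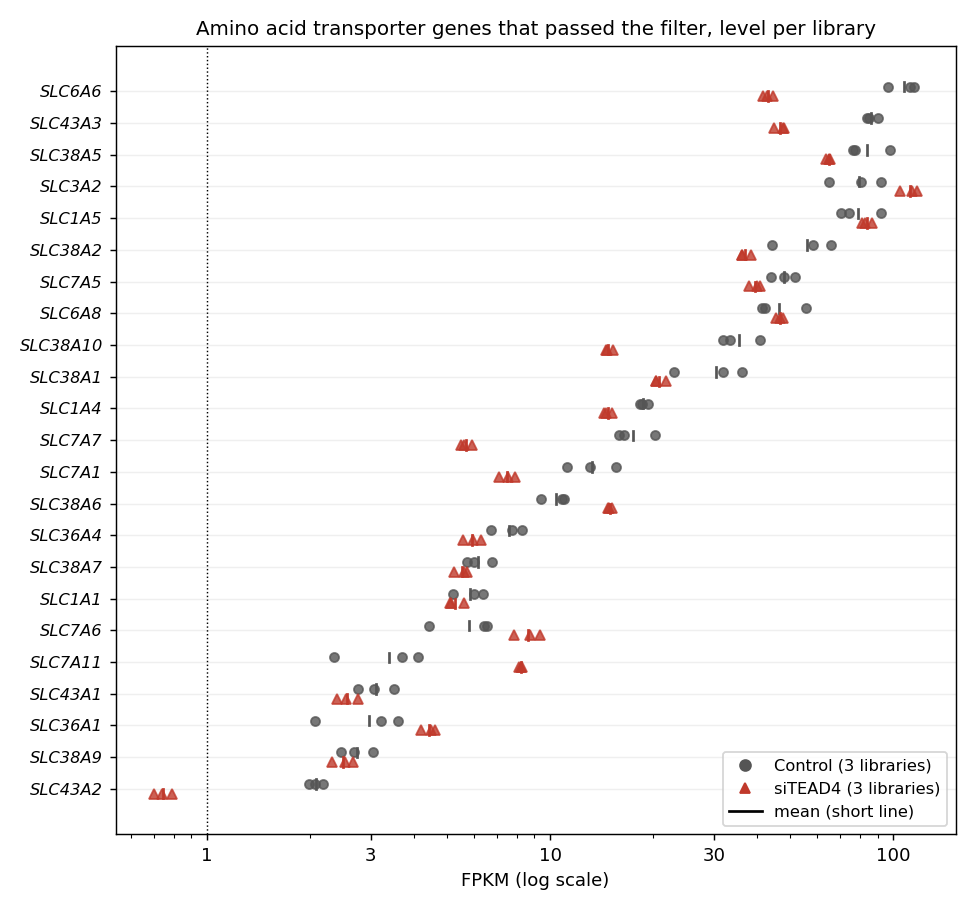
FPKM of the 23 tested members in each library, on a log axis, in the order of their Control means (circles, Control; triangles, siTEAD4; short lines, means of 3 libraries; dotted line, 1 FPKM). SLC6A6 was highest in Control at 108 FPKM and SLC3A2 in siTEAD4 at 112 FPKM, and the siTEAD4 libraries lie closer to each other than the Control libraries do.

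The order of the members by level differed between the groups. In Control, the taurine transporter gene SLC6A6 came first at 108 ± 10.01 FPKM (SD, n = 3), and its level stood clear of the next by more than their SDs. SLC43A3 (86.2 ± 3.65), SLC38A5 (83.8 ± 12.0), SLC3A2 (79.3 ± 13.7) and SLC1A5 (78.9 ± 11.7 FPKM) followed, and each lay within the SDs of its neighbour. In siTEAD4, SLC3A2 came first at 112 ± 6.80 FPKM and SLC1A5 second at 83.6 ± 2.96, and SLC6A6 was sixth at 43.01 ± 1.46. The members together summed to 740 to 782 FPKM in the Control libraries and 588 to 604 FPKM in the siTEAD4 libraries, which was 0.158% to 0.172% and 0.123% to 0.126% of all FPKM.

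Promoter windows of RefSeq (GRCh38.p14) were found for 20 of the 23 tested members; SLC6A6, SLC7A11 and SLC43A3 were not searched. The 250 bases before the annotated start were searched on both strands for the core of the antioxidant response element (TGACNNNGC), which NRF2 binds, for the response element of ATF4 with C/EBP proteins (TGATGNAA), and for the TEAD motif (GGAATG). The antioxidant core, whose letters can overlap an AP-1 site, occurred in 4 of the 20 members and in 12.1% of 9326 windows of genes tested. These 4 are printed because they include the heavy chain gene SLC3A2 and the light chain gene SLC7A6, which rose, and SLC7A7 and SLC7A1, which fell. The windows of SLC3A2 and SLC7A7 lie inside the longer gene spans that GENCODE gives. SLC38A5, a glutamine transporter gene that fell, is printed for its TEAD motif. The sequences run 5′ to 3′ in the direction of the gene and end at the base before the start. Only the antioxidant core, or in SLC38A5 the TEAD motif, is in capitals.
SLC3A2, chr11:62881449-62881698, plus strand: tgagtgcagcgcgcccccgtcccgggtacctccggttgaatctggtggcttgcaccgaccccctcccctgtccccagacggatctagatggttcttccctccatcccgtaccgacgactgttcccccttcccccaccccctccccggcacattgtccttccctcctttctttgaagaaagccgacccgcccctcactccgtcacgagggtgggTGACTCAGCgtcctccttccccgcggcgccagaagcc
SLC7A6, chr16:68264276-68264525, plus strand: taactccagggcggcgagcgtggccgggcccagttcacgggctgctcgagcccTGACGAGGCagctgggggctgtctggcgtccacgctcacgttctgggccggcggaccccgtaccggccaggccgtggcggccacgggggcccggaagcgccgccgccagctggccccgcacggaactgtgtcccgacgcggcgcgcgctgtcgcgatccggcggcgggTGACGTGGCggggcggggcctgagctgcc
SLC7A7, chr14:22819792-22820041, minus strand: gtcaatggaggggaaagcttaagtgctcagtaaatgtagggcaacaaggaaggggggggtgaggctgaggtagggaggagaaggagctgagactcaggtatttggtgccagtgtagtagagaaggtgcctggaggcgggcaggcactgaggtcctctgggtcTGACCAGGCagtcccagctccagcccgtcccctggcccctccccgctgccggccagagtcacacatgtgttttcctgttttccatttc
SLC7A1, chr13:29595689-29595938, minus strand: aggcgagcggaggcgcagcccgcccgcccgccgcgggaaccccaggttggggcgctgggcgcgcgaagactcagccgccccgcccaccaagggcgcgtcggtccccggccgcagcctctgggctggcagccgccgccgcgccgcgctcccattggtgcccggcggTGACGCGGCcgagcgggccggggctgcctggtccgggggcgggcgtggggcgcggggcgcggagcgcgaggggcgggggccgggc
SLC38A5, chrX:48470261-48470510, minus strand: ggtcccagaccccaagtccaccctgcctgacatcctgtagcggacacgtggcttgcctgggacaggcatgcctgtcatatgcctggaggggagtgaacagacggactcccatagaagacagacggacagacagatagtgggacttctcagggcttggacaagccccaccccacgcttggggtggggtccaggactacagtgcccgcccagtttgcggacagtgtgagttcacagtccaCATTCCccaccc
The SLC3A2 element lay 37 to 29 bases before the start and that of SLC7A7 88 to 80 bases before it, so genes that rose and genes that fell both held one. The TEAD motif occurred in 2 of the 20 windows (9.33% of those of genes tested): on the opposite strand in SLC38A5, 12 to 7 bases before the start, and on the gene's strand in SLC38A6, 79 to 74 bases before it. SLC38A5 fell and SLC38A6 rose. The ATF4 element occurred in none of the 20 and in 1.24% of the windows of genes tested. The E-box CACGTG, which MYC and TFE proteins bind, occurred in 3 of the 20, in SLC7A5, SLC38A5 and SLC43A1, and in 9.11% of the windows of genes tested. That of SLC38A5, 206 to 201 bases before the start, is left in lower case above.

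Among heavy chains, SLC3A2 rose. It lies on chromosome 11, 62856102 to 62888875, plus strand (GENCODE release 29, GRCh38), and its protein carries SLC7 light chains to the surface. Control 1, 2 and 3 held 65.04, 92.28 and 80.59 FPKM of SLC3A2, and siTEAD4 1, 2 and 3 held 113.56, 117.44 and 104.22 FPKM. All 3 siTEAD4 libraries lay above all 3 Control libraries. The log2 fold change was 0.50 ± 0.124 (SE; limma adjusted p = 0.011). SLC3A1, the partner of the cystine transporter light chain SLC7A9 in the kidney tubule, was low throughout, at 0.57, 0.67 and 0.69 FPKM in Control and 0.26, 0.24 and 0.36 FPKM in siTEAD4. Its groups did not overlap either, with siTEAD4 lower, but 29.4% of its exonic bases are shared with PREPL on the opposite strand, which rose (0.56, limma adjusted p = 0.0227), and the treatment of strand is not given in the sources used here.

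The tested light chain genes that pair with SLC3A2 split, 2 rising and 2 falling. All 4 were thus called, beside 44.9% of all genes tested (26.1% higher and 18.8% lower). SLC7A11 encodes xCT, which takes up cystine in exchange for glutamate, and rose by the largest fold of any tested member that rose. On chromosome 4, 138164097 to 138242349, minus strand, it was at 4.11, 2.34 and 3.71 FPKM in Control and 8.24, 8.26 and 8.14 FPKM in siTEAD4. The siTEAD4 libraries were all near 8 and none of the Control libraries reached 5. The mean was 2.43 times the Control mean, the log2 fold change was 1.09 ± 0.150 (SE; limma adjusted p = 0.000564), and the exact two-sided permutation test gave p = 0.1, the smallest possible. Control 2 held the lowest value, and without it the log2 fold change was 0.91 (limma adjusted p = 6.45e-06). The antisense gene SLC7A11-AS1 shares 8.97% of its exonic bases.

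SLC7A6 and SLC7A7 encode y+LAT2 and y+LAT1, exchangers that move cationic amino acids such as arginine out of the cell against neutral ones, and they moved in opposite directions. SLC7A7 (chromosome 14, 22773222 to 22829820, minus strand) held 16.37, 20.23 and 15.88 FPKM in Control and 5.93, 5.60 and 5.49 FPKM in siTEAD4. Its siTEAD4 mean was 32.4% of the Control mean, with a log2 fold change of -1.46 ± 0.105 (SE; limma adjusted p = 2.1e-05), the deepest fall among the tested members. SLC7A6 (chromosome 16, 68264516 to 68301823, plus strand) was at 6.41, 4.44 and 6.55 FPKM in Control and 8.71, 7.83 and 9.36 FPKM in siTEAD4. The groups did not overlap, and the log2 fold change was 0.52 ± 0.137 (SE; limma adjusted p = 0.0154). The gene SLC7A6OS on the opposite strand shares 44.4% of the exonic bases of SLC7A6, so reads of the pair cannot be told apart without strand; SLC7A6OS itself was at 9.84 ± 0.510 and 11.6 ± 0.685 FPKM (SD, n = 3) and did not pass (0.22, limma adjusted p = 0.0626). The call of SLC7A6 ended without siTEAD4 1 (limma adjusted p = 0.055) or siTEAD4 3 (0.0672).

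SLC7A5, which encodes LAT1, the importer of leucine and other large neutral amino acids, was the most abundant light chain gene. Its level was 48.05, 51.83 and 44.14 FPKM in Control and 40.13, 40.77 and 37.97 FPKM in siTEAD4, without overlap. The fall was small, to 82.5% of Control (log2 fold change -0.27 ± 0.0840, SE; limma adjusted p = 0.0293), and the call ended without any 1 siTEAD4 library (0.0809 to 0.121) and after correction of each library for transcript length and GC content, which was tried only once the data were known (-0.12, adjusted p = 0.102). GENCODE lists a pair of SLC7A5 pseudogenes, SLC7A5P1 and SLC7A5P2, whose reads may have been counted with it. SLC7A8, which encodes the related exchanger LAT2 of tubule cells, did not exceed 0.11 FPKM.

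Within each library, the shares of SLC7A7, SLC7A6 and SLC7A11 in the light chain transcripts differed between the groups without overlap. The 5 light chain genes summed to 70.3 to 78.9 FPKM in the Control libraries and 61.1 to 63.1 FPKM in the siTEAD4 libraries. SLC7A5 made up 62.8% to 65.7% of that sum in Control and 62.2% to 65.2% in siTEAD4, ranges that overlap. SLC7A7 went from 21.8% to 25.6% in Control to 8.95% to 9.40% in siTEAD4, and SLC7A11 from 2.97% to 5.48% to 13.1% to 13.3%. SLC7A6 stood at 5.63% to 9.32% and 12.5% to 15.3%. The summed light chain FPKM per FPKM of SLC3A2 was 1.15, 0.855 and 0.872 in Control and 0.556, 0.533 and 0.586 in siTEAD4. These shares describe transcripts and were given no test.

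**Figure D2:**
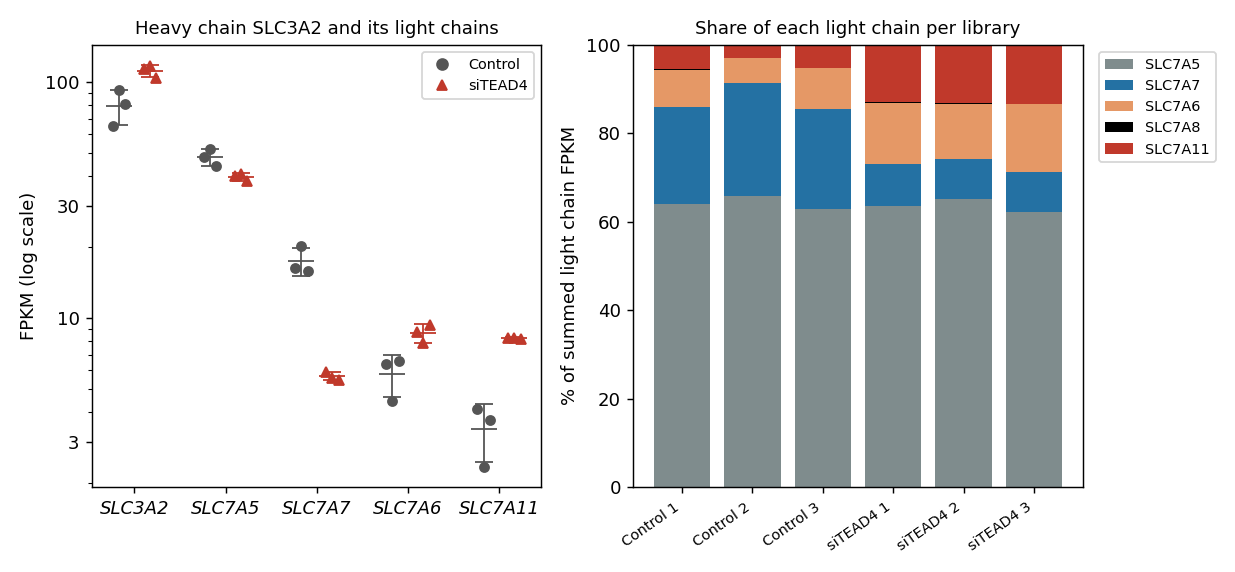
Left, FPKM (log axis) of the heavy chain gene SLC3A2 and 4 light chain genes in each library, with means and SDs of 3 libraries. Right, the percentage of the summed light chain FPKM that each light chain gene made up in each library; the SLC7A5 part stays near 64% in both groups, SLC7A11 reaches 13.1% to 13.3% in siTEAD4, and SLC7A8 is too small to see.

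Of the 5 members of the cationic subfamily of SLC7 (SLC7A1 to SLC7A4 and SLC7A14), only SLC7A1 was expressed above 1 FPKM. SLC7A1 encodes CAT1, a carrier of arginine, lysine and ornithine, and lies on chromosome 13, 29509410 to 29595688, minus strand. It held 15.58, 11.17 and 13.10 FPKM in Control and 7.56, 7.10 and 7.88 FPKM in siTEAD4. All siTEAD4 libraries lay below all Control libraries, at 56.6% of the Control mean (log2 fold change -0.74 ± 0.119, SE; limma adjusted p = 0.00131). SLC7A2, which encodes CAT2, did not exceed 0.19 FPKM, SLC7A14 did not exceed 0.17 and SLC7A4 did not exceed 0.02, and SLC7A3 was listed at 0 in all 6 libraries.

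Glutamine and other small neutral amino acids enter through SLC38 and SLC1 carriers, and here SLC38A1 and SLC38A2 fell while SLC1A5 did not pass. Of the 7 SLC38 genes tested, 4 fell, 1 rose and 2 did not pass. The share called was 71.4% beside 44.9% of all genes tested, and the share lower 57.1% beside 18.8%. SLC38A2 and SLC38A1 encode SNAT2 and SNAT1, and their genes lie 88.2 kb apart on chromosome 12. SLC38A2 (46358189 to 46372867, minus strand) was at 65.82, 44.32 and 58.33 FPKM in Control and 36.26, 36.24 and 38.45 FPKM in siTEAD4. SLC38A1 (46183063 to 46270017, minus strand) held 36.14, 22.97 and 31.94 FPKM in Control and 20.30, 20.28 and 21.82 FPKM in siTEAD4. In both genes the groups did not overlap, and Control 2 was the Control library nearest to siTEAD4. The log2 fold changes were -0.57 ± 0.132 (SE; limma adjusted p = 0.00807) for SLC38A2 and -0.50 ± 0.147 (SE; limma adjusted p = 0.0228) for SLC38A1. The call of SLC38A1 ended without Control 3 (limma adjusted p = 0.09) or any 1 siTEAD4 library (0.0553 to 0.0743) and with no filter (0.052). Their neighbour SLC38A4 did not exceed 0.01 FPKM.

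SLC38A5, which encodes SNAT5, a carrier of glutamine, serine and glycine, was the most abundant SLC38 gene and fell from 83.8 ± 12.0 to 64.8 ± 0.856 FPKM (SD, n = 3; log2 fold change -0.36, limma adjusted p = 0.0208). Its call ended without any 1 siTEAD4 library (limma adjusted p = 0.0659 to 0.0749). SLC1A5 encodes ASCT2, a major glutamine importer of many tumour lines. It was at 70.35, 92.17 and 74.13 FPKM in Control and 86.81, 82.90 and 81.00 FPKM in siTEAD4. The groups overlapped because Control 2 lay above all siTEAD4 libraries, and the gene did not pass (0.09, 95% interval -0.15 to 0.33, limma adjusted p = 0.507). Without Control 2 it passed as higher (0.21, limma adjusted p = 0.0165), as it did after correction for length and GC (0.20, adjusted p = 0.00664). The antisense gene AC008622.2 shares 23.4% of the exonic bases of SLC1A5, and the treatment of strand is not given. SLC1A4, which encodes the related exchanger ASCT1 for alanine, serine and cysteine, fell to 78.7% of Control, from 18.7 ± 0.548 to 14.7 ± 0.423 FPKM (SD, n = 3; -0.33, limma adjusted p = 0.00828), but not without siTEAD4 2 (adjusted p = 0.0532).

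Among the remaining SLC38 genes, SLC38A10 fell by more than any other and SLC38A6 rose. SLC38A10, a broadly expressed member whose transport role is less settled, lies on chromosome 17, 81245000 to 81295547, minus strand. It held 31.97, 40.84 and 33.38 FPKM in Control and 14.51, 15.21 and 14.60 FPKM in siTEAD4. The siTEAD4 mean was 41.7% of the Control mean, with no overlap (log2 fold change -1.20 ± 0.102, SE; limma adjusted p = 4.67e-05). SLC38A6 went from 10.4 ± 0.871 to 14.9 ± 0.197 FPKM (SD, n = 3; 0.48, limma adjusted p = 0.00231). Its start overlaps that of TRMT5 on the opposite strand, which shares 4.76% of its exonic bases and also rose (0.39, limma adjusted p = 0.00656).

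Among 3 transporters of the lysosomal membrane, SLC36A1 rose and SLC38A9 and SLC38A7 did not pass. SLC38A9, an arginine sensor that signals to mTORC1, stood at 2.73 ± 0.298 and 2.50 ± 0.177 FPKM (SD, n = 3) and did not pass (-0.09, 95% interval -0.31 to 0.13, limma adjusted p = 0.468). SLC38A7, an exporter of glutamine and asparagine from lysosomes, stood at 6.18 ± 0.544 and 5.53 ± 0.236 FPKM and did not pass either (-0.14, 95% interval -0.34 to 0.07, limma adjusted p = 0.252). SLC36A1, which encodes the proton-coupled carrier PAT1, rose from 2.97 ± 0.801 to 4.44 ± 0.210 FPKM (SD, n = 3; 0.48, limma adjusted p = 0.0271), and SLC36A4, which encodes the proline and tryptophan carrier PAT4, fell from 7.59 ± 0.781 to 5.94 ± 0.350 FPKM (-0.31, limma adjusted p = 0.033). Both of these calls ended without Control 3, without any 1 siTEAD4 library and with no filter, with limma adjusted p from 0.0542 to 0.088 for SLC36A1 and from 0.0594 to 0.135 for SLC36A4. Without Control 2 the log2 fold change of SLC36A1 was 0.30 (adjusted p = 0.00954). After correction for length and GC, SLC38A9 passed as lower (-0.24, adjusted p = 0.0179).

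In the SLC43 family, SLC43A3 and SLC43A2 fell and SLC43A1 did not pass. SLC43A3, which despite its family carries purine nucleobases, lies on chromosome 11, 57406954 to 57427580, minus strand, 57.0 kb from SLC43A1. It was at 84.67, 90.42 and 83.64 FPKM in Control and 47.70, 48.16 and 44.84 FPKM in siTEAD4, with no overlap. Its level fell to 54.4% of Control (log2 fold change -0.86 ± 0.0749, SE; limma adjusted p = 5.08e-05). An annotated readthrough gene on the same strand, AP000781.2, shares 29.9% of its exonic bases. SLC43A1 and SLC43A2 encode LAT3 and LAT4, carriers of branched-chain amino acids and phenylalanine. SLC43A1 stood at 3.11 ± 0.383 and 2.56 ± 0.186 FPKM (SD, n = 3; -0.20, 95% interval -0.43 to 0.02, limma adjusted p = 0.125). SLC43A2 (chromosome 17, 1569267 to 1628886, minus strand) held 2.07, 2.18 and 1.99 FPKM in Control and 0.70, 0.79 and 0.74 FPKM in siTEAD4, so it was low in siTEAD4. Its log2 fold change was -0.82 ± 0.0822 (SE; limma adjusted p = 0.000107), and -1.37 with a pseudocount of 0.1, since adding 1 shrinks the change of low genes.

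SLC6 carriers use sodium and chloride and serve mainly osmolytes and neurotransmitters, and 2 of the 17 in the tables were above the filter. SLC6A6 takes up taurine, an osmolyte, and lies on chromosome 3, 14402576 to 14489349, plus strand. It was at 115.09, 96.33 and 111.76 FPKM in Control and 42.76, 41.69 and 44.58 FPKM in siTEAD4. The lowest Control library held more than any siTEAD4 library, and the siTEAD4 mean was 39.9% of Control (log2 fold change -1.30 ± 0.0882, SE; limma adjusted p = 1.46e-05). GENCODE lists 1 processed pseudogene, SLC6A6P1. SLC6A8, the creatine transporter gene, held 42.15, 55.72 and 41.36 FPKM in Control and 47.73, 45.45 and 46.79 FPKM in siTEAD4, with overlap. It did not pass (0.02, 95% interval -0.24 to 0.28, limma adjusted p = 0.900), although without Control 2, which held the highest value, it passed as higher (0.16, limma adjusted p = 0.0445).

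The acidic carriers of the SLC1 family were represented by SLC1A1, which encodes EAAT3, a carrier of glutamate and cysteine. SLC1A1 stood at 5.86 ± 0.595 and 5.29 ± 0.277 FPKM (SD, n = 3) and did not pass (-0.12, 95% interval -0.34 to 0.10, limma adjusted p = 0.329), except as lower after correction for length and GC (-0.18, adjusted p = 0.0467). SLC1A3, which encodes the glial glutamate transporter EAAT1, was low at 0.29 to 0.77 FPKM. SLC1A2, SLC1A6 and SLC1A7 did not exceed 0.06 FPKM.

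**Figure D3:**
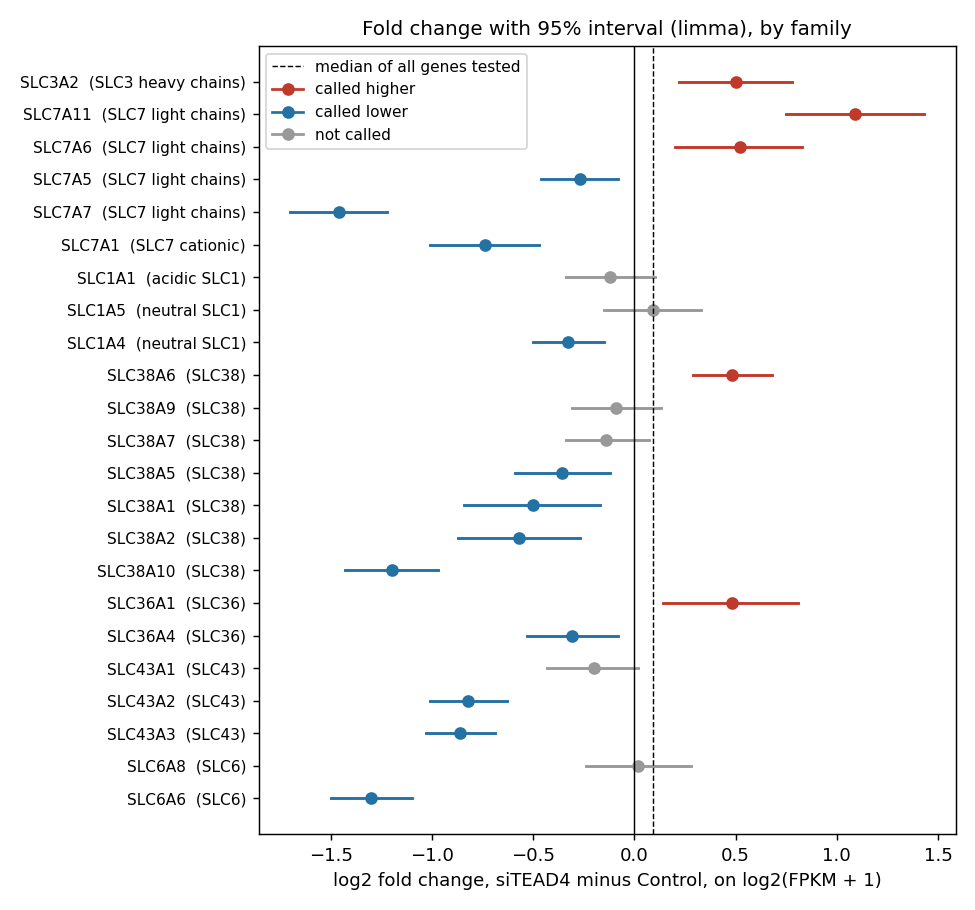
Log2 fold change of each tested member, siTEAD4 minus Control, on the log2(FPKM + 1) scale with 95% intervals from limma, grouped by family. The 5 rises and 12 falls called are coloured, and the dashed line marks the median of all genes tested, 0.09.

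Of the 32 low members, 15 were SLC6 genes, 3 were listed at 0 in all libraries (SLC6A2, SLC6A15 and SLC7A3), and 17 never reached 0.1 FPKM. The neurotransmitter transporter genes SLC6A2 (noradrenaline) and SLC6A3 (dopamine) did not exceed 0.03 FPKM. Among low members known from the renal tubule, the neutral carrier SLC6A19 did not exceed 0.01 FPKM, SLC7A9 did not exceed 0.19 and the proline carrier SLC6A20 did not exceed 0.42. In 6 low members all siTEAD4 libraries lay below all Control libraries (SLC1A3, SLC3A1, SLC6A12, SLC6A17, SLC7A2 and SLC38A11), and in 2 they lay above (SLC6A4 and SLC6A13). Among all genes tested, groups did not overlap with siTEAD4 lower in 22.6% and higher in 35.1%. These shares cover only genes that passed the filter, so none of the low members, and the share among low genes was not computed. SLC38A11 was at 0.09 to 0.18 FPKM in Control and 0.00 to 0.01 FPKM in siTEAD4. With no filter, limma called SLC3A1 (-0.35, adjusted p = 0.00303), SLC38A11 (-0.19, adjusted p = 0.00733) and SLC6A12 (-0.20, adjusted p = 0.0137) as lower and SLC6A13 (0.24, adjusted p = 0.0327) as higher. In that setting 29% of 17283 genes were called, and the other low members were not.

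**Figure D4:**
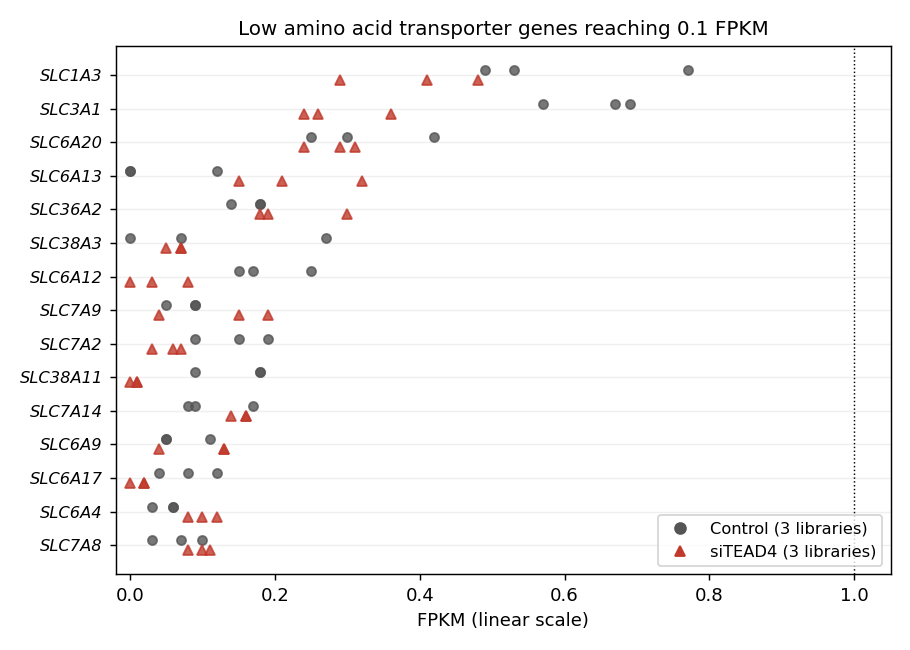
FPKM, on a linear axis, of the 15 low members that reached 0.1 FPKM in at least 1 library (circles, Control; triangles, siTEAD4; dotted line, 1 FPKM). SLC1A3 and SLC3A1 are the highest, and none reaches 1 FPKM.

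Some members lie side by side in the genome. Of 9 neighbouring pairs within 500 kb, SLC38A1 and SLC38A2 both fell, and SLC43A3 fell beside SLC43A1, which did not pass. In the other pairs at least 1 gene was low, such as SLC7A8 beside SLC7A7 at 295 kb and SLC36A2 beside SLC36A1 at 89.5 kb.

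Carriers outside these families, most of them of amino acids, were mixed. Of 22 listed, 21 had a row and 15 were tested, of which 5 rose and 2 fell, a share called of 46.7% beside 44.9% of all genes tested. SLC25A15, the mitochondrial ornithine carrier, rose from 5.02 ± 0.257 to 8.55 ± 0.266 FPKM (SD, n = 3; 0.67, limma adjusted p = 0.000362). SFXN1, a mitochondrial serine carrier, rose from 21.4 ± 1.84 to 33.0 ± 0.855 FPKM (0.60, limma adjusted p = 0.000673), and its relative SFXN3 fell from 30.1 ± 3.92 to 21.4 ± 1.01 FPKM (-0.47, limma adjusted p = 0.00584). SLC25A29, a mitochondrial carrier of basic amino acids, also fell (-0.47, limma adjusted p = 0.00951). The 5 that rose include SLC17A9, a nucleotide carrier (0.39, limma adjusted p = 0.0188). The number that rose was 2 after rescaling to one median and without siTEAD4 1 or siTEAD4 2. It was 3 without Control 3, and the number that fell was 4 with no filter. In the same order of settings, the share called of all genes tested was 40.5%, 29.9%, 30.6%, 33.1% and 29%.

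Genes that sense amino acids at the lysosome and signal to mTORC1 were mostly not called. Of 25 listed, 24 had a row and 22 were tested, and 3 rose and none fell by limma (13.6% called, beside 44.9% of all genes tested; 4 higher and 0 lower at an unadjusted p under 0.05): FLCN (0.41, limma adjusted p = 0.00293), the Rag GTPase gene RRAGA (0.41, adjusted p = 0.00781) and LAMTOR3 (0.28, adjusted p = 0.0366). The number that rose was 2 after rescaling to one median, with TMM-like scaling and without any 1 siTEAD4 library. It was 4 without Control 1, 6 without Control 2 and 7 after correction for length and GC. With Control 1 left out, 1 fell. In the same order of settings, the share called of all genes tested was 40.5%, 40.9%, 29.9% to 30.6%, 51.4%, 58.6% and 59.8%. SESN2, a leucine sensor, stood at 5.63 ± 0.574 and 4.82 ± 0.495 FPKM (SD, n = 3) and did not pass (-0.19, limma adjusted p = 0.171).

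Of 10 transcription factor and regulator genes known to act on these transporters, all tested, 5 rose and 1 fell. The share called was 60% beside 44.9% of all genes tested, and the share higher 50% beside 26.1%. The list was chosen with earlier results of these data known, so these shares cannot show an excess. The transcript of ATF4, which drives SLC7A11, SLC3A2 and other transporter genes when amino acids are short, stood at 203 ± 23.0 and 214 ± 7.21 FPKM (SD, n = 3) and did not pass (0.08, limma adjusted p = 0.511). That of NFE2L2, which encodes NRF2, an activator of SLC7A11, did not pass either, at 68.4 ± 7.66 and 64.4 ± 3.71 FPKM (-0.08, limma adjusted p = 0.536). MYC rose from 22.9 ± 0.695 to 48.0 ± 3.16 FPKM (1.04, limma adjusted p = 2.87e-05), ATF3 from 2.40 ± 0.455 to 5.50 ± 0.278 FPKM (0.94, adjusted p = 0.00026), DDIT3 by 0.73 (adjusted p = 0.0039) and BACH1, a repressor at antioxidant elements, by 0.62 (adjusted p = 0.00945) on the log2 scale. KEAP1 was the fifth that rose (0.32, limma adjusted p = 0.0296), and CEBPB fell (-0.36, adjusted p = 0.0402). The number that rose was 4 after rescaling to one median, with TMM-like scaling, without Control 1, without Control 3 and without any 1 siTEAD4 library, and 6 without Control 2 and after correction for length and GC. The number that fell was 2 without Control 1 and without Control 2. The share called of all genes tested was 40.5% after rescaling to one median and 40.9% with TMM-like scaling. It was 51.4% without Control 1, 33.1% without Control 3 and 29.9% to 30.6% without any 1 siTEAD4 library. Without Control 2 it was 58.6%, and after correction for length and GC 59.8%. The fall of CEBPB was not called with no filter, without Control 3 or without any 1 siTEAD4 library.

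**Figure D5:**
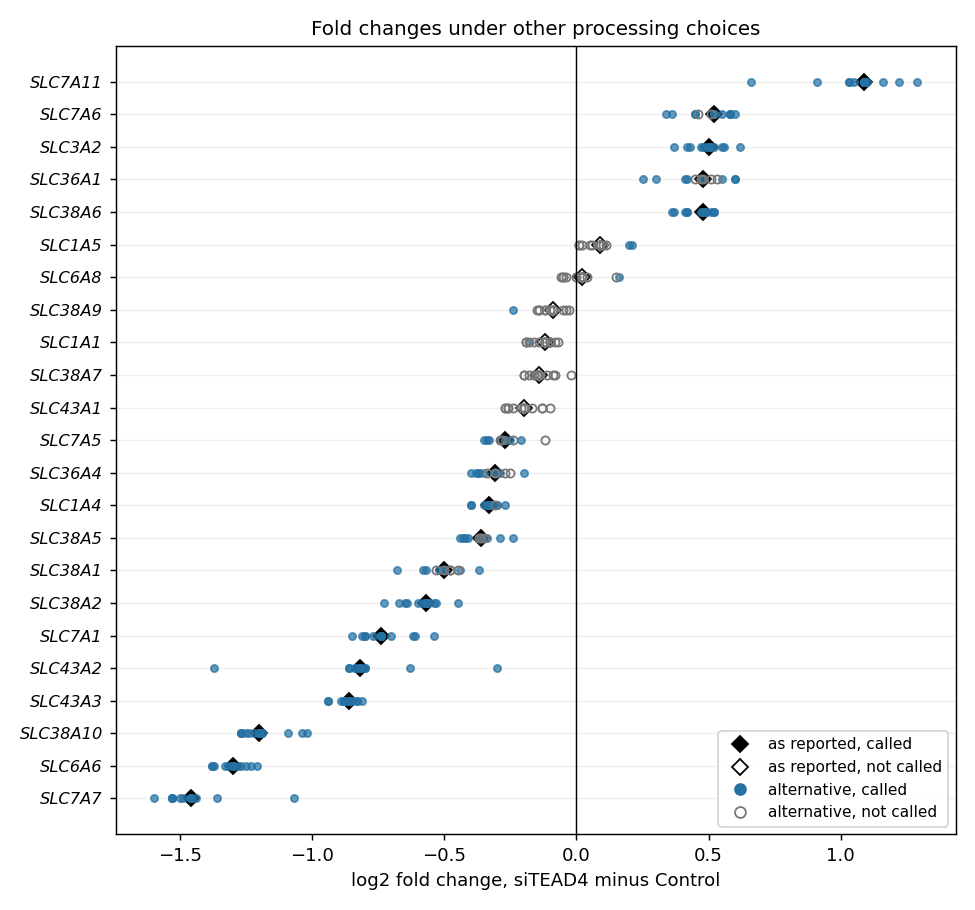
Log2 fold change of each tested member as reported (diamonds) and under 15 other processing choices or left-out libraries (circles; filled where called). The 10 members called in every alternative that tested them include SLC7A11, SLC3A2, SLC38A6, SLC7A7, SLC6A6 and SLC38A10, and only SLC6A8 lies on both sides of 0.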

How the data were processed

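Per the labels' protocols, 786-O cells were lysed in Trizol and their RNA was sequenced by BGISEQ-500. The authors deposited 1 table per library with 1 FPKM value per gene symbol, rounded to 2 decimals, per the file headers; Control 1 names no unit and was taken as FPKM from its range, decimals and symbols. Per the submitters' processing notes, the reads were placed on GRCh38. What aligner, counter and annotation were used, and whether strand was, is not given in the sources used here. In 878 low genes, 21.5% of 2390 ratios to the lowest value lay within 0.1 of a whole number, and 20% would do so if evenly spread, so no whole reads could be recovered.

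Genes that reached 1 FPKM in 3 or more of the 6 libraries were fitted as log2(FPKM + 1) in limma 3.58.1 (R 4.3.3; mean-variance trend, group as the only term), with Benjamini-Hochberg adjustment over all genes tested. Fold changes are on that scale, which understates those of low genes. Levels are means ± SD. Whether the libraries of a group are separate cultures is not stated; p-values therefore reflect only how these libraries vary, possibly for technical reasons. No pair of libraries had equal values in more than 0.684% of genes.

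Members and lists were chosen with earlier results of these data known. All members are counted, and 1 low member is not reported here by name; values per library are given for called members whose log2 fold change was 0.5 or more in size, heavy chains and, chosen after their values were seen, SLC7A5, SLC1A5 and SLC6A8. Up to 4 genes per comparison list were named by fold change; others, chosen after their values were seen, complete small counts or were named for their role. Of the comparison lists, 2 symbols had no row.

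Alternatives were leaving out each library, a replicate block, rescaling to one median, TMM-like scaling, no filter, a filter of 5 FPKM, pseudocounts of 0.1 and 5, and no trend. A correction of every library for transcript length and GC content (splines with 5 degrees of freedom; 11156 of 11411 genes) was added after seeing the data. On simulated data for this comparison (11411 genes), 10% of 50 genes changed 1.25-fold were recovered, 40% at 1.5-fold, 86% at 2-fold and 100% at 4-fold. In that simulation 124 genes were called in all, against 5123 in the data. The adjusted threshold depends on how many genes change, so these shares do not give the recovery in the data.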

Additional observations from a re-analysis of the deposited data

How the results depend on the processing

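Of the 17 members called, 10 were called in the same direction in every alternative that tested them, and 7 lost the call in at least 1: SLC1A4, SLC7A5, SLC7A6, SLC36A1, SLC36A4, SLC38A1 and SLC38A5, with the values beside each. The 10 include SLC43A2, which passed the filter only through Control, where it was higher. Leaving out 1 library gave 3 to 7 members higher, 7 to 12 lower, a median of -0.29 to -0.21 and 3415 to 6689 genes called in all. Without Control 1 the genes called in all were 5863 and without Control 2 they were 6689, against 5123 with all libraries. The cause was not tested. When a log2 fold change of 0.5 or more in size was also required, 3 of the 5 rises and 8 of the 12 falls were counted. This was 11 of 23 tested members beside 21.2% of all genes tested. Without SLC43A2, which passed the filter only through Control, it was 10 of 22. The median of the tested members was -0.34 after rescaling to one median and -0.35 with TMM-like scaling, which moved the median of all genes from 0.09 to 0.02, -0.31 with a filter of 5 FPKM, -0.20 with a pseudocount of 5, -0.24 with length and GC trends removed and -0.01 with no filter, where 52 members, most of them near 0, entered. SLC6A8, which was not called, turned to -0.05 after rescaling to one median, -0.06 with TMM-like scaling, -0.04 without Control 1 and -0.05 without Control 3, and leaving out 1 library gave -0.05 to 0.16. Correlations of deviations between libraries of the same replicate number ran from -0.163 to 0.272. With 3 libraries per group they cannot settle whether the libraries were paired. With a replicate block 5 members were higher and 12 lower, the same genes, with 5180 genes called in all. FPKM keeps no depth, so counting error could not be given, and levels under 1 FPKM are the least certain.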
